A study of Homo sapiens with 12 samples.

Results

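The genes described here are 35 that encode cytokines, chemokines, chemokine receptors and inflammatory mediators, out of 20033 protein-coding genes of GENCODE release 44 on chromosomes 1 to 22, X and Y. Their chromatin was read from 6 lists of ATAC-seq peaks, where the Tn5 transposase cuts open DNA and the cut fragments pile up into peaks. A peak was assigned to a gene when it lay in the gene body or within 25 kb on either side, and peaks that overlapped between lists were counted once, as a region. By this rule the 35 genes had 430 regions of 355394 in all, and the windows of the other coding genes held 238827. The cells were KO52 (KO-52), an acute myeloid leukemia (AML) line with mutations in both CEBPA alleles, and all cells therefore carried these mutations. They were transduced with an empty vector (EV), with p42, the full-length isoform of the transcription factor CEBPA, or with p30, the short isoform that lacks the first part of the protein and is the form found in CEBPA-mutant AML. Each was kept in DMSO or treated with tunicamycin (Tm) (8 h, 2 µg/mL), and each of these 6 conditions had 2 replicates. The study's methods name plasmids with ERT2 fusions and a sort for GFP for long-term expression in these cells, so p42 and p30 were extra copies from a vector. ERT2 keeps a protein out of the nucleus until 4-hydroxytamoxifen is given, which the methods describe for cells with such fusions and their empty vector controls, while the labels of these libraries name no inducer. Tunicamycin blocks the glycosylation of proteins in the endoplasmic reticulum (ER) and so starts ER stress.

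Chemokines are small secreted proteins that draw leukocytes along a gradient, and cytokines such as IL-1, IL-6 and TNF pass inflammatory signals between cells. In myeloid cells their genes are held in a poised state and are switched on through factors such as NF-kB, AP-1, interferon regulatory factors and members of the CEBP family, which bind promoters and distant enhancers. CEBP proteins bind as dimers, with themselves or with partners such as AP-1 and ATF proteins, and PU.1 marks many myeloid enhancers. Open chromatin at such a site does not show which factor is bound there, nor that the gene is transcribed.

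Each list pools both replicates of a condition, so no value below has a replicate spread and no test between conditions was possible. All intervals are 95% intervals for the counting of regions or tags only. The lists held 187339 to 253747 peaks on these chromosomes from an estimated 22.2 to 30.0 M tags, and the p42 DMSO list was both the longest and the deepest, so weak regions pass the threshold most easily there. The promoters of all 8 myeloid marker genes checked, SPI1, CEBPA, MPO, CD33, CSF3R, CSF1R, LYZ and ELANE, had a peak in every list. Promoters of T cell genes (2 or 3 of 3) and B cell genes (2 of 3) had peaks too, so a promoter peak was not particular to genes of the myeloid lineage. The highest tag count at the summit of a peak was 105 to 111 in the lists and 54 among the 430 regions.

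A few of the regions that differed between p42 and p30 are shown first, each as the 201 bases centred on the summit of its strongest peak, on the forward strand of hg38. Capitals mark exact matches, on either strand, to CEBP (TTGCGCAA or TTGCACAA) or AP-1 (TGACTCA), the letters of motifs for CEBP homodimers and for FOS and JUN dimers. The regions near CCL3 and CXCR4 were those, among the 5 strongest found in both p42 lists and in no other list, that held a CEBP match. The remaining 4 are promoter regions, within 1 kb of a start site, that had a peak in 1 of the p42 and p30 DMSO lists.
CCL3, 4190 bp downstream of the start, both p42 lists only, chr17:36085844-36086044: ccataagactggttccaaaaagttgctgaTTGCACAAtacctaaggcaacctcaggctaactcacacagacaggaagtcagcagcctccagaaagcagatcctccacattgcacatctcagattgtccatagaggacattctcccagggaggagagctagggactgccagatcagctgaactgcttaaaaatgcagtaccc
CXCR4, 11016 bp downstream of the start, both p42 lists only, chr2:136105127-136105327: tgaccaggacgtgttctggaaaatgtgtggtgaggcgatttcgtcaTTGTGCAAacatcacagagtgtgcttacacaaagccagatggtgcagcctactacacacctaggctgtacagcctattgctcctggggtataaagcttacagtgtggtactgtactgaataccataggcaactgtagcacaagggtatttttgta
CCL4 promoter, both p42 lists only, chr17:36104552-36104752: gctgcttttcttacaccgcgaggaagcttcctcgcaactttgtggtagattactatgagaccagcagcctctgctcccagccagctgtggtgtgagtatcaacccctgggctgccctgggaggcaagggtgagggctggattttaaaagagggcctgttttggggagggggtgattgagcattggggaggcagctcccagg
CXCL8 promoter, both p42 lists only, chr4:73741148-73741348: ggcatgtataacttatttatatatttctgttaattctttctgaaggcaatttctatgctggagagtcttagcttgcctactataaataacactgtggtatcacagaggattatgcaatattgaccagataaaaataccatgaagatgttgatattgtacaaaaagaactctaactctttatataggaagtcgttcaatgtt
IL1RN promoter, EV and p30 lists only, chr2:113117671-113117871: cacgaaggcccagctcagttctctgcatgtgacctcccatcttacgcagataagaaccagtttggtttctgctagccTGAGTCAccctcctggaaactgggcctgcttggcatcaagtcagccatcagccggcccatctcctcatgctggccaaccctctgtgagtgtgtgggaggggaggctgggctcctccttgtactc
IL18 promoter, in p30 and not in p42 in DMSO, chr11:112163402-112163602: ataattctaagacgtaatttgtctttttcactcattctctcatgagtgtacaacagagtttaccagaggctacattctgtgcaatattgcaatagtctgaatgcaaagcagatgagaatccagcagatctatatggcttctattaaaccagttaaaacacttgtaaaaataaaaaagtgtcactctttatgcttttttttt
Windows that overlap an annotated UTR are not printed, which leaves out the promoter regions of CXCL16, CCL2, IL6 and IL12B, and the weaker ones of LIF and IL18 are left out as well. Some of these sequences are not unique in the genome. In the CCL3 window 91 of 172 stretches of 30 bases and in the CCL4 window 87 of 172 have a copy elsewhere in hg38, with 2 places at most. In the CXCR4 window 6 of 172 do, with 6 places at most. No stretch of the CXCL8, IL1RN and IL18 windows occurs elsewhere. Reads from copies can be placed at the wrong copy, and how much this adds at CCL3 and CCL4 was not tested.

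Most promoters of these genes were open in every condition. A promoter region was present in all 6 lists for 28 of the 35 genes (80.0%, 64.1 to 90.0), against 75.7% of the other coding genes. Of the 35 genes, 31 had a promoter peak in EV DMSO (background 79.8%), 29 in EV Tm (79.6%), 31 in p30 DMSO (80.5%), 29 in p30 Tm (79.1%), 29 in p42 DMSO (82.1%) and 30 in p42 Tm (80.2%), so the counts stayed near those of other genes and near each other. The strongest were PTGS2, which encodes cyclooxygenase 2, and IL23A, a subunit of IL-23. The PTGS2 promoter region, chr1:186680123-186681148, had 43, 51, 51, 41, 50 and 52 tags at the summit in the order EV DMSO, EV Tm, p30 DMSO, p30 Tm, p42 DMSO and p42 Tm, an order kept in all lists of 6 values below. It was among the strongest 5% of peaks in every list, with percentiles of 95.2 to 99.6. The region at IL23A, chr12:56333304-56334582, had 47, 42, 51, 45, 51 and 42 tags and also lies in the promoter of PAN2, so the peak cannot be given to IL23A alone. NLRP3, the sensor protein of an inflammasome, had 40, 38, 40, 36, 37 and 30 tags at its promoter. At the other end, CCL7, CXCL9 and CXCL10 had no promoter peak in any list. CCL20, a chemokine for CCR6-bearing cells, had a single promoter peak of 8 tags in EV DMSO, and CXCL5 had promoter peaks in the DMSO lists alone, with 4 tags in EV, 7 in p30 and 8 in p42, in 2 regions.

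**Figure D1:**
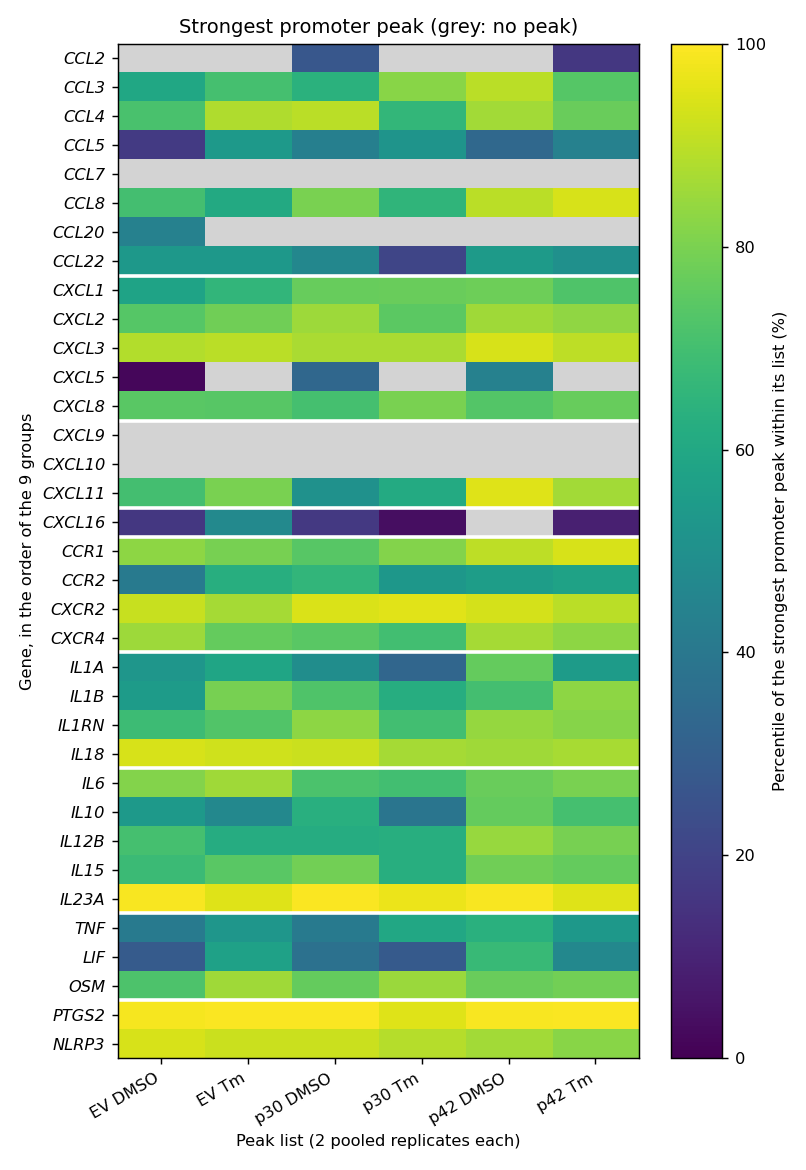
Strongest promoter peak of each of the 35 genes (rows, in the order of their 9 groups) in each of the 6 pooled peak lists (columns). The colour is the percentile of the peak by −log10 q within its own list, in percent, and grey means that no peak lay within 1 kb of a start site. PTGS2 and IL23A are near the top of every list, and CCL7, CXCL9 and CXCL10 are grey throughout.

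Of the 35 genes, 6 had a promoter region in p42 and not in p30 in DMSO, and 4 had the reverse. The first set comprised CCL4, CXCL8, IL6, IL12B, IL18 and LIF (17.1%, 8.10 to 32.7), where the background was 24.4% of other coding genes. The second comprised CCL2, CXCL16, IL1RN and IL18 (11.4%, 4.54 to 26.0), against 15.2%. Both shares lay near those of other genes. CCL4, a chemokine for monocytes and T cells, had 9 tags in each p42 list 811 bp downstream of its start and no peak there in the other lists, while its main promoter region had 15, 21, 25, 13, 26 and 18 tags. CXCL8, the neutrophil attractant IL-8, had the same shape, with 9 and 9 tags in the p42 lists 679 bp downstream of the start, beside a promoter region that had 19, 22, 17, 23, 18 and 21. At IL6 the region just upstream of the start, chr7:22725745-22725892, had 12 and 10 tags in EV, no peak in p30 DMSO, 12 in p30 Tm and 14 and 11 in p42, so that p30 DMSO was the only list without it. At IL12B, which encodes the p40 subunit shared by IL-12 and IL-23, a peak of 7 tags over the start was found in p42 DMSO alone, and the region 689 bp upstream of the start was in all lists with 14, 12, 12, 12, 23 and 18 tags, highest in both p42 lists. IL18 counts in both sets because a region of 8 tags upstream was found in p42 DMSO alone and another downstream had 11, 8 and 11 tags in EV Tm, p30 DMSO and p42 Tm. All of these regions held 14 tags or fewer.

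At 2 promoter regions the lists showed the reverse and were present in all 4 EV and p30 lists and in neither p42 list. The first belongs to IL1RN, which encodes the antagonist of the IL-1 receptor, at chr2:113117669-113117906, 122 bp upstream of an annotated start, with 10, 13, 12 and 7 tags. Its printed sequence holds an AP-1 match near the summit. The other belongs to CXCL16, a chemokine anchored in the membrane, at chr17:4736337-4736462, with 8, 12, 9 and 7 tags, and it also holds an AP-1 match. The main IL1RN promoter region had 24, 27, 31, 24, 32 and 31 tags and was thus open with p42 as well. CCL2, the monocyte attractant, had its promoter peak in p30 DMSO with 11 tags and in p42 Tm with 8, and in no other list.

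By place, 101 of the 430 regions lay in a promoter, 62 of them in one of the 35 genes, 26 lay in an exon, 89 in an intron and 214 between genes. Over all 430 regions, 266 had a peak in EV DMSO, 262 in EV Tm, 295 in p30 DMSO, 259 in p30 Tm, 331 in p42 DMSO and 295 in p42 Tm. The comparison of p42 with p30 in DMSO asks what the missing first part of CEBPA does to these loci. Of the 376 regions with a peak in either list, 250 were in both, 81 were in p42 alone (21.5%, 17.7 to 26.0) and 45 in p30 alone (12%, 9.07 to 15.6). In the regions of other coding genes these shares were 29.2% and 13.5%, so that the p42 share of the 35 genes was lower than that of other genes, with an interval that did not reach it, and the p30 share was close. The net difference was 9.57 percentage points in favour of p42 (3.76 to 14.8), and 15.7 in other genes. When all lists were cut to 187339 peaks the net difference turned to -1.52 points, with 50 regions in p42 alone and 55 in p30 alone, and that of other genes fell to 1.58. With tags scaled to the shallowest list it was 7.67 points.

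**Figure D2:**
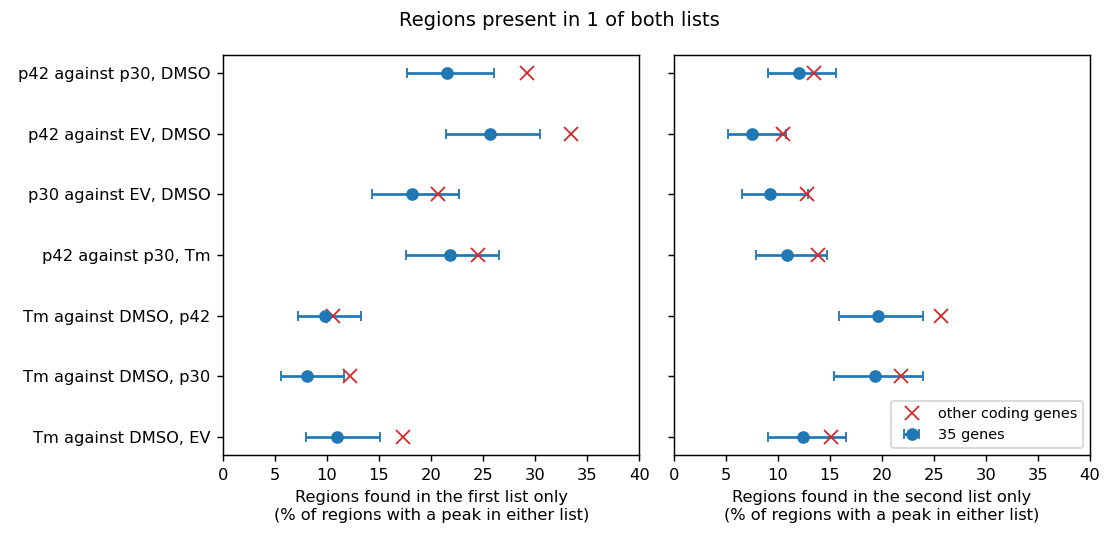
Share of regions with a peak in the first list alone (left) or the second alone (right), in percent of the regions with a peak in either list, for 7 pairs of lists. Points are the 35 genes with 95% Wilson intervals, which cover counting only, and crosses are the regions of other coding genes. In p42 against p30 in DMSO the point on the left is at 21.5% and the cross at 29.2%.

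The interferon-inducible chemokines CXCL9, CXCL10 and CXCL11, which attract T cells through CXCR3, lie side by side on chromosome 4 and were the only one of the 9 groups with p42-only regions and no p30-only region in both treatments. Of their 17 regions, 5 were in p42 and not in p30 in DMSO and 0 the reverse, and after tunicamycin the counts were 6 and 0. The p42-only counts are 38.5% of the 13 regions in either DMSO list and 46.2% of the 13 in either tunicamycin list, beside 29.2% and 24.5% in other genes. In p30 alone other genes had 13.5% and 13.9%. With only 13 regions a count of 0 is not far from such shares, and all of this is a description. At equal list lengths, which was tried once the data had been seen, the counts were 2 and 0 in DMSO and 4 and 0 after tunicamycin. With scaled tags the p42-only counts stayed at 5 and 6. The region that led all 430 in both p42 lists alone, chr4:76019883-76020236, lies past the 3′ end of CXCL10 in an intron of ART3, with 15 tags in p42 DMSO and 7 in p42 Tm and no peak elsewhere. Of the 172 stretches of 30 bases around its summit, 76 occur elsewhere in hg38, with 1892 places at most. What misplaced reads add there was not tested. Inside CXCL9, a region in an intron, chr4:76003739-76003847, had 6 tags in EV DMSO, 12 in p42 DMSO and 7 in p42 Tm and was in neither p30 list. Some regions found in every list also had more summit tags with p42 here. Among the 250 regions in both DMSO lists, the unadjusted interval for p42 over p30 lay above 1 in 2, both of them here, and below 1 in 1. Counting error alone lets some of 250 such intervals exclude 1, and the share in other genes was not determined. The 2 regions are thus named for their values, as a description. The one that covers an exon of CXCL9, chr4:76003018-76003388, had 11, 6, 8, 7, 25 and 21 tags, so that both p42 lists were above all others. Scaled by depth, p42 over p30 was 2.77 in DMSO (1.21 to 7.09) and 2.72 after tunicamycin (1.11 to 7.58). The CXCL11 promoter region, chr4:76035188-76035484, had 13, 17, 9, 11, 28 and 20 tags, again highest in both p42 lists, with a ratio of 2.75 in DMSO (1.26 to 6.63). Other shared regions of the locus did not follow this. The one in the middle, 5.0 kb from the CXCL10 start in an intron, had 7, 9, 10, 8, 7 and 8 tags, with p42 DMSO below p30 DMSO, and the same holds once scaled by depth. Nor did those at the edges, such as the one at the start of SDAD1 with 28, 30, 38, 38, 39 and 32 tags.

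**Figure D3:**
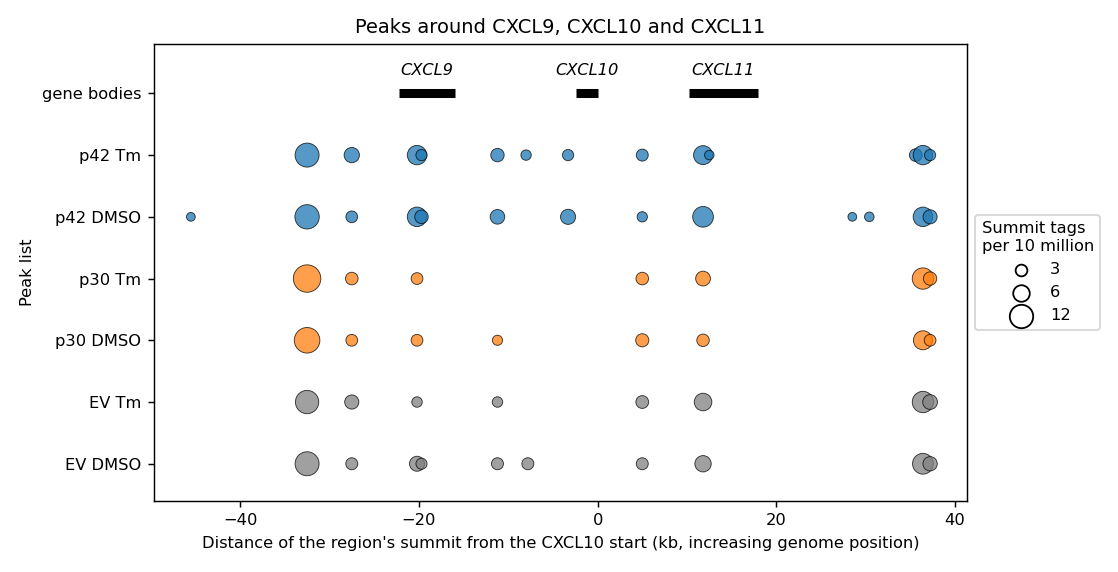
Peaks of the 6 pooled lists (rows) around CXCL9, CXCL10 and CXCL11, by the distance of a region's summit from the CXCL10 start in kb, with the gene bodies as bars on top. The area of a circle is the number of summit tags per 10 M. The p42 rows hold 13 regions each, the p30 rows 8 and 7 and the EV rows 10 and 8.

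Among the 8 CC chemokine genes, 15 of the 53 regions in either DMSO list were in p42 alone (28.3%) and 9 in p30 alone (17%), and after tunicamycin 15 of 46 (32.6%) and 3 (6.52%). In other genes these shares were 29.2% and 13.5% in DMSO and 24.5% and 13.9% after tunicamycin. When all lists were cut to the same length, which was tried for each group once the data had been seen, the counts were 8 and 12 in DMSO and 8 and 5 after tunicamycin, so that the p42 surplus in DMSO turned. At CCL3, which encodes a chemokine for monocytes, the region 4190 bp downstream of the CCL3 start and past its 3′ end, chr17:36085840-36085997, had 20 and 15 tags in the p42 lists and no peak in the other 4. It holds the CEBP match shown above, centred 67 bp from the summit. A weaker region 4575 bp downstream of the CCL4 start had 7 and 6 tags in the same lists and a CEBP match 11 bp from its summit, and 90 of the 172 stretches of 30 bases around it have a copy elsewhere in hg38. The CCL3 promoter region had 13, 17, 15, 22, 30 and 18 tags, with the highest in p42 DMSO and overlapping values otherwise. Near CCL2, a region 11962 bp upstream of the start had 18 tags in p42 DMSO and no peak in the other 5 lists, so it was not kept after tunicamycin. The CCL8 promoter region, for a ligand of CCR2 and other receptors, had 13, 11, 17, 12, 23 and 25 tags, with both p42 lists above the rest. Near CCL22, which macrophages and dendritic cells make, the region 7932 bp downstream had 10 and 10 tags in EV, 9 in p30 Tm and 15 and 7 in p42, and p30 DMSO was the only list without it. These genes lie in clusters and share windows, so a region between CCL3 and CCL4 counts for both. CCL5, the T cell attractant RANTES, had a weak promoter region in every list with 5, 10, 8, 10, 7 and 8 tags, and each of the 2 promoter regions of CCL22 was in every list with 5 to 10 tags. CXCL16 stands alone as a chemokine with a membrane anchor, and of its 15 regions 3 were in p42 alone and 3 in p30 alone in each treatment, and at equal list lengths 2 and 2 in DMSO and 2 and 3 after tunicamycin.

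The 5 neutrophil-attracting CXC chemokine genes, which signal through CXCR2, had close counts for p42 and p30. Of their 64 regions 31 were in all lists. Of the 57 in either DMSO list 10 were in p42 alone (17.5%) and 8 in p30 alone (14%), and after tunicamycin 9 of 49 (18.4%) and 7 (14.3%). In other genes these shares were 29.2% and 13.5% in DMSO and 24.5% and 13.9% after tunicamycin. The p42 shares of this group were thus lower than those of other genes and the p30 shares close. At equal list lengths the counts were 7 and 9 and then 7 and 8. CXCL2 and CXCL3 had strong promoters in all lists, with 31, 37, 38, 33, 37 and 34 tags at CXCL2 and 30, 34, 30, 30, 38 and 33 at CXCL3. CXCL1 had 13, 15, 20, 19, 22 and 19. CXCL5 was the exception among them, with the few promoter tags given above. In CXCL2 itself a region over an exon had 23, 15 and 19 tags in EV Tm and both p30 lists and no peak in EV DMSO or with p42. The 4 receptor genes CCR1, CCR2, CXCR2 and CXCR4 had 52 regions. Of the 48 in either DMSO list 8 were in p42 alone (16.7%) and 6 in p30 alone (12.5%), and after tunicamycin 7 of 44 (15.9%) and 5 (11.4%). Here too the p42 shares were lower than those of other genes given above. At equal list lengths the counts were 6 and 6 and then 5 and 5. The CCR1 promoter had 21, 19, 17, 20, 29 and 31 tags, highest in the p42 lists. CXCR4, the receptor that holds stem cells in the marrow, had 36, 31, 30, 26, 46 and 39 at its strongest promoter region. These counts are not scaled by depth. By percentile within its list EV DMSO (85.3) lay between p42 DMSO (86.5) and p42 Tm (83.2), so p42 did not lead here. A further 2 regions near these receptors were in both p42 lists alone. The first is in an intron of CCR3 14759 bp downstream of the CCR1 start, with 11 and 5 tags. The other is the CXCR4 region shown above, with 10 and 6 tags and its CEBP match centred 50 bp from the summit. On the other side, a region 6225 bp upstream of the CXCR4 start was in all EV and p30 lists with 12, 12, 13 and 10 tags and in neither p42 list.

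The IL-1 family genes IL1A, IL1B, IL1RN and IL18 had 78 regions. Of the 73 in either DMSO list 16 were in p42 alone (21.9%) and 11 in p30 alone (15.1%), where other genes had 29.2% and 13.5%. After tunicamycin there were 6 of 58 (10.3%) and 11 (19%), where other genes had 24.5% and 13.9%. At equal list lengths p30 had the larger count in both treatments, 13 against 9 in DMSO and 16 against 4 after tunicamycin. The regions in all 4 EV and p30 lists and in neither p42 list were 5 of the 430 (1.16%, background 0.801%), and 3 of them lie here: the IL1RN promoter region, one in the promoter of IL1F10, 24063 bp upstream of the IL1RN start, with 7, 7, 11 and 9 tags, and one 19836 bp upstream of IL1A with 10, 11, 8 and 12. The other 2 are those of CXCL16 and CXCR4 given above. One IL1RN region went the other way, in an intron 5877 bp upstream of the nearest start, with 8 tags in EV Tm, 10 in p30 Tm and 17 and 16 in p42. Among the IL1RN regions lost in p42 Tm alone, that at chr2:113104073-113104465 had 10, 12, 9, 12 and 7 tags in the other 5 lists. The IL1A promoter had 12, 14, 12, 9, 20 and 12 tags and that of IL1B 20, 30, 27, 20, 25 and 32, with overlapping values for p42, p30 and EV.

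The other interleukin genes, IL6, IL10, IL12B, IL15 and IL23A, had 72 regions. Of the 61 in either DMSO list 14 were in p42 alone (23%) and 4 in p30 alone (6.56%), and after tunicamycin 15 of 56 (26.8%) and 5 (8.93%), beside 29.2% and 13.5% and then 24.5% and 13.9% in other genes. At equal list lengths the counts were 12 and 5 and then 11 and 7. IL10, the anti-inflammatory cytokine, had 2 promoter regions in all lists. The one over the start had 15, 11, 13, 11, 24 and 15 tags and the other 13, 11, 15, 10, 22 and 18, highest in p42 DMSO. A region in an intron of IL19, 10811 bp upstream of the IL10 start, had 13 and 12 tags in the p42 lists alone. Near IL12B, the region 14697 bp upstream of the start had 8 tags in EV DMSO, 11 in p30 DMSO and 24 and 13 in the p42 lists, and after tunicamycin it was found with p42 alone. The IL15 promoter had 17, 19, 22, 15, 21 and 19 tags, with no order among the lines. An intron of IL15 held a region with 7 tags in EV DMSO and 10 and 12 in p42 that was in no other list, and 21502 bp upstream lay another with 6, 8, 10 and 16 tags in EV and p30 and 8 in p42 Tm, which p42 DMSO alone lacked. IL6, in contrast, had the strongest region in both p30 lists alone, 24305 bp downstream of the start, with 11 and 7 tags. TNF, LIF and OSM had 43 regions, 27 of them in all lists. In DMSO 5 of 39 were in p42 alone (12.8%) and 3 in p30 alone (7.69%), and after tunicamycin 3 of 36 (8.33%) and 2 (5.56%), and at equal list lengths p30 had more, with 6 against 3 and 4 against 2. The TNF promoter had 12, 13, 12, 15, 14 and 11 tags, that of LIF 9, 12, 10, 8, 15 and 9 and that of OSM 33, 41, 36, 39, 37 and 35. In TNF itself a region over an exon had 13 tags in EV DMSO, 19 and 17 in p30 and 15 in p42 DMSO, and it had no peak in EV Tm and p42 Tm. In OSM, a cytokine that signals through gp130, a region over an exon had 25 tags in EV DMSO and 29 and 26 in p42 and no peak in the other 3 lists. PTGS2 and NLRP3 had 23 regions. In DMSO 5 of 19 were in p42 alone (26.3%) and 1 in p30 alone (5.26%), and after tunicamycin 8 of 17 (47.1%) and 0, against 24.5% and 13.9% in other genes. At equal list lengths the counts were 1 and 2 in DMSO, which turns the direction, and 4 and 0 after tunicamycin. The NLRP3 region 4361 bp upstream of the start, chr1:247411674-247411964, had 19 tags in p30 DMSO and 28 and 23 in p42 and no peak in EV or p30 Tm, and the PTGS2 region 8696 bp upstream had 8 in EV Tm, 5 in p30 DMSO and 13 and 12 in p42.

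**Figure D4:**
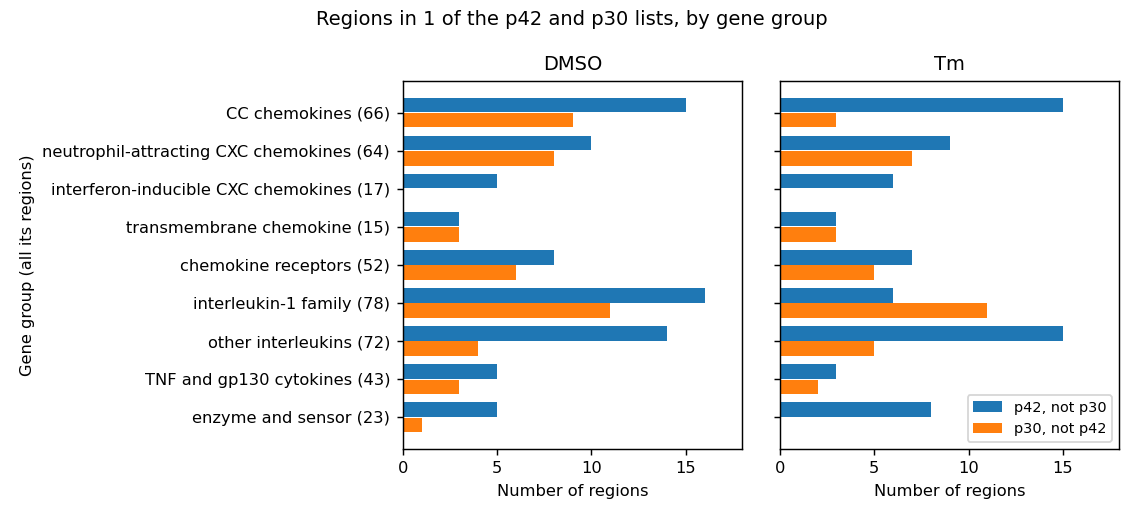
Number of regions with a peak in the p42 list and not in the p30 list (blue) and the reverse (orange), in DMSO (left) and after tunicamycin (right), for the 9 gene groups. Numbers in brackets are all regions of a group, and a region shared by 2 groups counts in both. CXCL9, CXCL10 and CXCL11 have no orange bar in either panel, and in the IL-1 family the orange bar is the longer one after tunicamycin, with 11 regions against 6.

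Genes with more regions have more that differ, so each gene was set beside other coding genes with the same number of regions. The 35 genes had 2 to 25 regions each, with a median of 13 against 15 in other genes. In DMSO, 9 genes had more p42-only regions than the median of such genes, 15 had fewer and 11 were at it. CCL4 had 6 of its 16, where 888 genes with 16 regions had a mean of 3.43 and 13.7% had as many. TNF had 0 of 15 and CXCL5 0 of 12, against means of 3.18 and 2.54. After tunicamycin 18 genes were above, 11 below and 6 at the median. IL15, a cytokine for NK and memory T cells, had 8 of 21 against a mean of 3.29, and 1.49% of 470 genes had as many. CXCL10 had 5 of 9 against 1.33, with 0.865% of 925 genes as high, and CXCL9, CXCL11, CCL3 and NLRP3 had 4, 5, 5 and 5, reached by 5.14, 3.10, 3.77 and 4.69% of the genes with their numbers. IL1RN had 1 against a mean of 4.08. In the other direction IL1RN led, with 6 p30-only regions of 25 in each treatment, against means of 2.66 and 2.34, and 3.79 and 2.76% of 290 genes had as many. With 35 genes, some at such percentages occur in any list, and CXCL9, CXCL10 and CXCL11 share regions.

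**Figure D5:**
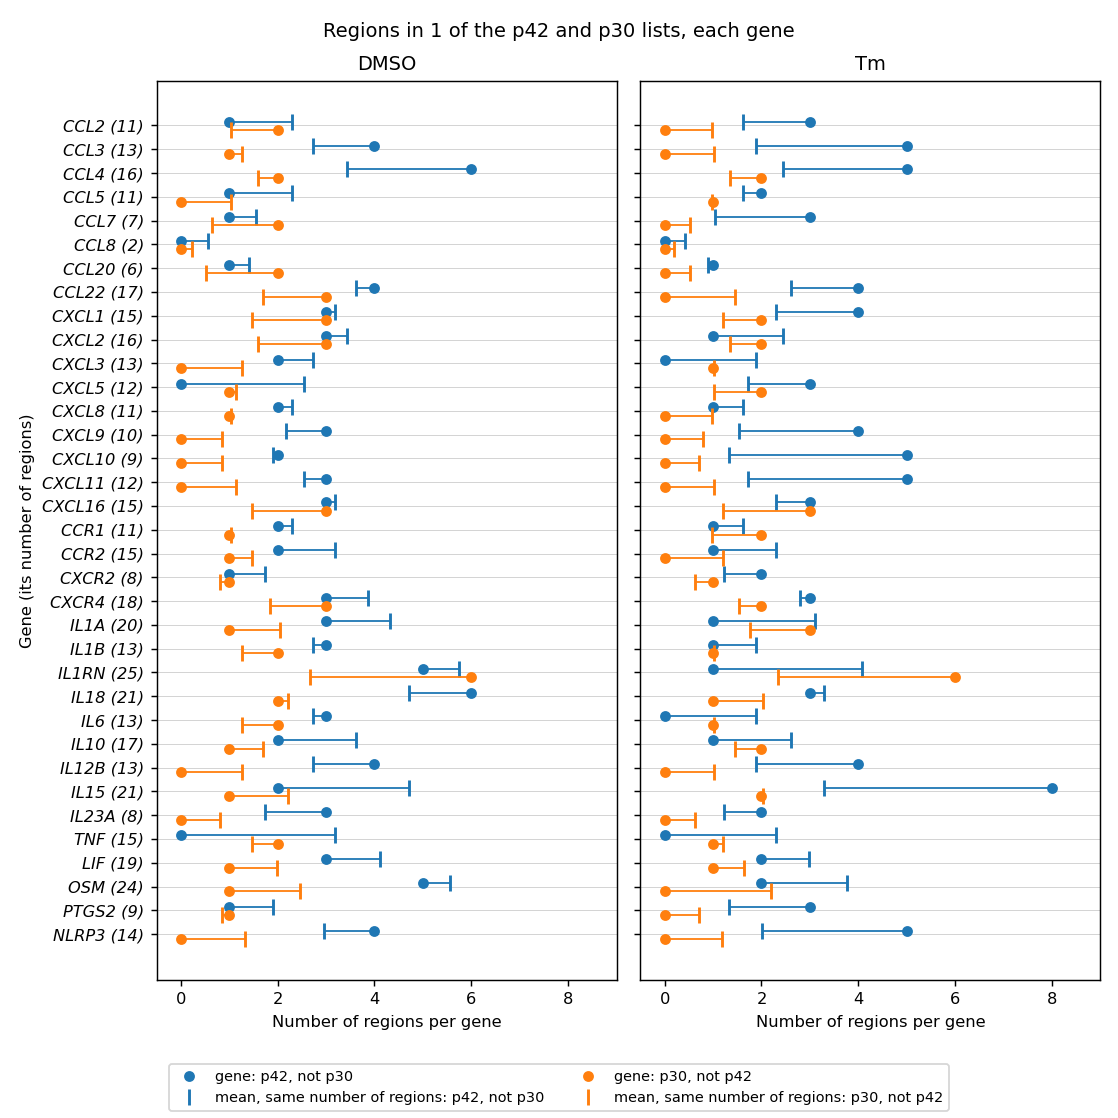
Regions with a peak in p42 and not in p30 (blue) and in p30 and not in p42 (orange) for each gene, in DMSO (left) and after tunicamycin (right). Dots are the genes, with their number of regions in brackets, and ticks are the mean over other coding genes with the same number of regions. After tunicamycin the dot of IL15 stands at 8 and its tick at 3.29, and the orange dot of IL1RN stands at 6 in both panels.

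Against the empty vector in DMSO, p42 had 92 of 358 regions alone (25.7%, 21.4 to 30.5) and EV 27 (7.54%, 5.23 to 10.8), where other genes had 33.4% and 10.5%. The net difference was 18.2 points, and with equal numbers of peaks 2.53. For p30 against EV, 59 of 325 were in p30 alone (18.2%, 14.3 to 22.7) and 30 in EV alone (9.23%, 6.54 to 12.9), beside 20.7% and 12.8% in other genes. The net difference was 8.92 points, and 4.13 with equal numbers of peaks. All 3 comparisons in DMSO use the same lists and are not independent. Of the 430 regions 1 was in all p42 and p30 lists and in neither EV list (0.233%, other genes 0.614%), 4568 bp downstream of a CCR2 start, with 7, 6, 10 and 9 tags.

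After tunicamycin, p42 and p30 differed over these genes about as other genes did when the regions were pooled. Counted gene by gene, 89 p42-only regions stood beside 72.9 in the mean of genes with the same number of regions, and 36 p30-only regions beside 40.9. In DMSO these counts were 91 beside 104 and 49 beside 47.6. Of 331 regions with a peak in either list, 72 were in p42 alone (21.8%, 17.6 to 26.5) and 36 in p30 alone (10.9%, 7.96 to 14.7), beside 24.5% and 13.9%. The net difference was 10.9 points (4.79 to 16.2), and -0.327 with equal numbers of peaks. Within p42 cells 36 of 367 regions were found after tunicamycin alone (9.81%, 7.17 to 13.3, background 10.6%) and 72 in DMSO alone (19.6%, 15.9 to 24.0, background 25.7%). In p30 cells the counts were 26 of 321 (8.10%, 5.59 to 11.6, background 12.2%) and 62 (19.3%, 15.4 to 24.0, background 21.8%). In EV cells they were 33 of 299 (11%, 7.97 to 15.1, background 17.3%) and 37 (12.4%, 9.11 to 16.6, background 15.1%). Both CEBPA lines thus had fewer of these regions after tunicamycin than in DMSO, and so did the regions of other genes. Their tunicamycin lists were also shorter, and with equal numbers of peaks the net difference between tunicamycin and DMSO moved from -9.81 to -5.25 points in p42 and from -11.2 to -6.45 in p30. IL15 lost 6 regions in EV against a mean of 2.00 in genes with as many, and 0.426% of these lost as many, while IL18 lost 7 in p42 against 4.07. At the promoters, the region with the most tags among those lost in p42 cells was 1 at CCR2, the receptor of CCL2, with 10 tags in p30 DMSO, 14 in p42 DMSO and no peak in any tunicamycin list. A promoter region of CXCR2, the receptor for IL-8, was in the 3 DMSO lists with 15, 10 and 18 tags and after tunicamycin in p42 alone, with 15.

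The last pattern, present in all DMSO lists and after tunicamycin with p42 alone, was counted after its values were seen. It held for 8 regions (1.86%, 0.946 to 3.63) where the background was 0.765%: 3 at IL15 and 1 each at CXCR2, NLRP3, IL12B, IL1RN and CXCL1. The corresponding pattern with p30 alone after tunicamycin held for 3 regions (0.698%, other genes 0.313%) and with EV alone for 2 (0.465%, other genes 0.455%). By presence over all lists, 197 regions were in all 6 (45.8%, 41.2 to 50.5, background 35.4%), 45 in p42 DMSO alone (10.5%, 7.91 to 13.7, background 12.6%), 15 in both p42 lists alone (3.49%, 2.13 to 5.68, background 4.59%) and 4 in both p30 lists alone (0.930%, 0.362 to 2.37, background 0.592%). The 2 found in both EV lists alone lie near IL1B, with 11 and 13 tags, and near IL15, with 5 and 5. Against other genes with the same number of regions the share in all 6 lists was less apart. Counted gene by gene, with shared regions repeated for each gene, 216 such regions stood beside 203 in the mean of those genes. Of the 35 genes 14 were above the median, 14 below and 7 at it.

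Where a region had a peak in both lists, heights were similar. Over 250 regions the median log2 ratio of tags per 10 M in p42 over p30 in DMSO was -0.10 (quartiles -0.33 and 0.23), and -0.04 in other genes. At least 2-fold higher were 6 regions (2.4%, background 2.28%) and at least 2-fold lower 7 (2.80%, background 2.54%). The counting interval of the ratio excluded 1 in 3 of the 250, unadjusted: the CXCL9 and CXCL11 regions above and 1 near TNF, where p42 over p30 was 0.442 (0.185 to 0.990), with 20 tags in each p30 list and 10 and 9 in p42. After tunicamycin it did so in 2 of 223, the same CXCL9 and TNF regions. Counting error alone lets some of so many unadjusted intervals exclude 1. The share in other genes was not determined, so these regions are a description.

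The sequences around the summits differed somewhat from those of other genes in motif content. Matches within 100 bp of the summit were counted on both strands, and matches to different motifs may overlap. AP-1 letters were in 52 of 430 regions (12.1%, 9.34 to 15.5) and in 9% of the regions of other coding genes, PU.1 (GAGGAAGT) in 39 (9.07%, 6.71 to 12.2) against 6.38%, and the NF-kB motif in 20 (4.65%, 3.03 to 7.07) against 2.44%. IRF (GAAANNGAA) was in 36 (8.37%, 6.11 to 11.4) against 7.20% and CEBP in 10 (2.33%, 1.27 to 4.23) against 1.53%. CEBP:ATF (TGATGCAA) was in 7 (1.63%, 0.791 to 3.32) against 1.17% and CRE (TGACGTCA) in 3 (0.698%, 0.238 to 2.03) against 0.262%. CEBP:AP1 (TGTTGCAA) was in 4 (0.93%, 0.362 to 2.37), below the 1.10% of other genes, but within 50 bp of the summit above them (0.698% against 0.601%). CEBP:ATF and CRE kept their direction there. Within 50 bp of the summit CEBP was in 3 regions (0.698%), below the 0.783% of other genes, so its direction turned, while AP-1 (7.67% against 6.34%), PU.1 (6.98% against 4.88%), NF-kB (2.33% against 1.18%) and IRF (3.49% against 3.06%) kept theirs. Among the 81 regions in p42 and not p30 in DMSO, CEBP letters were in 4 (4.94%, 1.94 to 12; other genes 3.24%), but within 50 bp in 1 (1.23%; other genes 1.79%). In the same set IRF was in 10 (12.3%, 6.85 to 21.3; other genes 7.53%) and AP-1 in 3 (3.70%, 1.27 to 10.3; other genes 6.47%). Among the 45 in p30 and not p42, AP-1 was in 10 (22.2%, 12.5 to 36.3; other genes 12.2%) and none of CEBP, CEBP:AP1 and CEBP:ATF was found, where other genes had 0.485, 0.429 and 0.436%. CEBP letters were in 3 of the 15 regions in both p42 lists alone, and in 6% of such regions in other genes, and within 50 bp in 1 of the 15. With so few regions these shares are a description.

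The receptors and signal transducers of the same pathways, 36 genes such as IL1R1, IL6R, TNFRSF1A, TLR4 and MYD88 that are no members, were read the same way. A promoter peak was present in 33 to 35 of the 36 in each list, beside 79.1 to 82.1% of other coding genes. In DMSO 10 had a promoter region in p42 and not in p30 and 8 the reverse, and after tunicamycin 10 and 4. Among the 19998 other coding genes these were 24.4% and 15.2% in DMSO, and 3910 and 2800 genes after tunicamycin. Over their 575 regions with a peak in either DMSO list, 143 were in p42 alone (24.9%, 21.5 to 28.6) and 82 in p30 alone (14.3%). The shares were 21.5% and 12% in the 35 genes and 29.2% and 13.5% in other genes. The p42 share was thus below that of other genes, with an interval that did not reach it.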

How the data were processed

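ATAC-seq was performed on 12 libraries of KO52 cells, 2 replicates in each of 6 conditions. Per the methods and the processing notes, the authors used Trim Galore 0.6.6 for trimming, Bowtie2 2.4.4 for alignment to hg38 and Picard against duplicates, and pooled the replicates for MACS2. Whether reads were shifted for the Tn5 offset or mitochondrial reads removed is not given in the sources used here. The deposited lists give for each peak a score, a fold enrichment (a ratio over the local background), −log10 p and −log10 q, and the summit's offset in bases (another unit), all as MACS2 wrote them.

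The authors' fold enrichment and −log10 p were used to recover whole tags at the summit and, with a genome size of 2700000000, the depth of each list. Only whole numbers of tags were tried, and in each list 100.0% of the peaks had one that gave the deposited −log10 p within 0.0001. Peaks of the 6 lists on chromosomes 1 to 22, X and Y that overlapped were merged into regions and assigned to GENCODE release 44 coding genes with 25 kb on each side, or 1 kb around start sites for promoters. Shares have 95% Wilson intervals, and ratios of tags have exact binomial intervals, both for counting error only. As replicates were pooled, no test between conditions was run. All 35 genes are named by group, with the strongest regions of each presence pattern and the promoter regions that differ between p42 and p30 in DMSO. Members and lists were chosen with earlier results of these data known. Alternatives were other thresholds, windows, promoter widths, overlaps, numbers of peaks and scalings. Scripts were tested on simulated data. Python 3.11.15, pandas 2.3.3, numpy 2.4.6, scipy 1.17.1 and matplotlib 3.10.9 were used. Some items are not reported here.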

Additional observations from a re-analysis of the deposited data

How the results depend on the processing

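No paired analysis was possible because each list pools both replicates of a condition, and leaving out a replicate was not possible for the same reason. Of the net differences under the alternatives, 60 moved by less than their counting interval, 1 of them to 0 (the response in EV at −log10 q from 10 on), 14 moved by more and 3 turned. With the same number of peaks from each list (187339), p42 against p30 turned to -1.52 points in DMSO and -0.327 after tunicamycin, and p42 against EV was 2.53, p30 against EV 4.13 and the tunicamycin responses of p42 and p30 -5.25 and -6.45. With −log10 q at or above 10 required where the region was present, p42 against p30 was 1.83 in DMSO and 2.70 after tunicamycin, p42 against EV 2.63, and p30 against EV and the tunicamycin responses of p42 and p30 were 0. With 5 in place of 10, p42 against EV was 9.20, p30 against EV 1.32, p42 against p30 after tunicamycin 4.48, the response in p30 -2.26 and that in EV turned to 0.917. With the gene body alone, p42 against EV was 9.20, p30 against EV 2.38 and the response in EV -10.3. At −log10 q from 10 on, no gene had a promoter region in p42 alone or p30 alone (0 and 0). With 50 bp in place of 100 around the summit, 5 of the 8 motif shares moved out of their interval. The alternatives on single groups and on promoters, with equal numbers of peaks or scaled tags, were chosen after seeing the data. Fewer peaks remained under the higher thresholds, and otherwise the cause was not tested.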
